A study of Mus musculus with 8 samples.

Results

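The genes described here encode the extracellular matrix: the collagens, the laminins, the glycoproteins and proteoglycans that join them, and the lysyl oxidases that cross-link them. They were chosen by name, as the protein-coding genes in the 3 deposited tables whose symbol has the form of a collagen chain or of a laminin chain. The set also took in the glycoproteins Fn1, Tnc, Fbn1 and Sparc, the basement membrane linkers Agrn, Hspg2 and Nid1, the proteoglycans Vcan, Dcn and Bgn, and Loxl1 to Loxl4. It holds 65 of the 24677 genes in the tables. Fbn2, Nid2, Lum, Postn and Lox were also looked for by name. They were not listed in the data used here, so they are not among the 65 and were not analysed. Among the 65, Col4a3bp has the form of a collagen symbol but encodes a ceramide transfer protein. It was counted and is described apart.

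RNA was sequenced from cultured 4T1 cells, a transplantable mouse line of triple-negative mammary carcinoma, in 8 libraries that fall into 4 groups of 2. Tyro3_OE cells were parental 4T1 cells in which Tyro3, a cell surface kinase that binds Gas6 and protein S, was overexpressed, and the parental group was the same line with the control genotype. Tyro3_KO cells were 4T1 cells resistant to anti-PD1 in which Tyro3 was knocked out, and the resistant group was that resistant line with the control genotype. Anti-PD1 antibodies block a T cell checkpoint receptor. All 4 groups were grown in DMEM with fetal bovine serum and had no treatment before RNA was taken. The vector, the guide and the number of clones behind each engineered line are not given in the labels. Nor is it stated whether replicate libraries were separate cultures, so p-values measure only the spread between these libraries, which may be technical.

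Epithelial cells rest on a basement membrane, a sheet built from laminin trimers and a collagen IV network that nidogen, perlecan and agrin tie together. Laminins are trimers of an alpha, a beta and a gamma chain, and collagens are trimers of chains that fold together in the endoplasmic reticulum and are trimmed and cross-linked after secretion. Fibronectin, tenascin C and SPARC are glycoproteins of provisional and remodelled matrix, and in mammary carcinoma both the tumour cells and the stroma are known to make matrix.

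The libraries held 18001482 to 27261282 counted reads. Tyro3 itself stood at 107 and 103 CPM (counts scaled to the TMM-adjusted library size) in Tyro3_OE and 25.7 and 24.4 CPM in parental libraries, and at 3.81 and 3.99 CPM in Tyro3_KO and 20.7 and 21.2 CPM in resistant libraries. Tyro3 was higher in Tyro3_OE and lower in Tyro3_KO cells than in their controls, as labelled. Between the controls, Tyro3 was lower in resistant than in parental cells. That log2 fold change was -0.25 (standard error 0.08, adjusted p = 0.00586 by the edgeR test described below). Over log2 CPM of the tested genes the Tyro3_KO libraries correlated with the parental ones at 0.988 and with the resistant ones at 0.945 to 0.947, and libraries of a group at 0.996 to 0.997. The 7 markers of carcinoma epithelium summed to 833 to 836 CPM in Tyro3_OE, 919 to 939 CPM in parental, 782 to 794 CPM in Tyro3_KO and 495 to 531 CPM in resistant libraries. Of these, Krt8 stood between 217 and 540.2 CPM and Krt18 between 257 and 441.6 CPM. The 2 did not move together. Krt8 was lower in Tyro3_OE (381 and 379 CPM) than in parental libraries (540 and 524 CPM). Krt18 was higher in Tyro3_OE (442 and 439 CPM) than in parental libraries (370 and 366 CPM). Epcam stayed at or below 1.32 CPM, Cdh1 at or below 4.01 CPM and Cldn7 at or below 0.362 CPM in every library. The 4 endothelial markers used summed to at most 1.31 CPM in any library. Kdr was not listed in the data used here, so no level is given for it. Of the 5 leukocyte markers used Ptprc stayed at or below 0.133 CPM. Cd68 made up nearly all of their sum of 16.4 to 17.3 CPM in Tyro3_OE libraries and 7.31 to 10.3 CPM in the others. The 8 fibroblast and pericyte markers summed to 202 to 206 CPM in Tyro3_OE and 95.7 to 95.9 CPM in parental libraries. They summed to 101 to 102 CPM in Tyro3_KO and 174 to 188 CPM in resistant libraries. Nearly all of that sum was Pdgfra and Pdgfrb, while Thy1, Fap and Acta2 stayed at or below 0.201 CPM. These sums moved with the fibronectin and laminin levels described below, and their part in the results was not tested.

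The 65 genes took 0.965% and 0.969% of all reads in Tyro3_OE libraries, against 0.569% and 0.583% in parental ones. They took 0.669% and 0.679% in Tyro3_KO libraries, against 1.03% and 1.06% in resistant ones. In both pairs the groups did not overlap, and the shares were higher in Tyro3_OE and in resistant libraries. In such bulk libraries fewer cells that make a transcript and less of it per cell cannot be told apart. Fn1 alone took 0.271% and 0.278% of the reads in Tyro3_OE, 0.0788% and 0.0842% in parental, 0.135% and 0.134% in Tyro3_KO and 0.359% and 0.359% in resistant libraries.

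Levels between genes were compared on the deposited FPKM scale, fragments per kilobase of gene scaled to sequencing depth, which corrects for length. Fn1, which encodes fibronectin, had the highest FPKM in 3 groups, with 208 and 213 FPKM in Tyro3_OE, 119 and 118 FPKM in Tyro3_KO and 293 and 287 FPKM in resistant libraries. In parental libraries the highest was Col4a1, a chain of the collagen IV network, at 106 and 109 FPKM. Fn1 stood there at 70.2 and 75.2 FPKM, in the fourth place by the group mean and nearly level with Col4a2 and Sparc. By the mean over the 4 groups they were among the 8 highest genes with Lama5, Lamb1 and Lamc1, the chains of a laminin trimer, Col4a2, Sparc and the cross-linking enzyme Loxl4. The order differed between groups, with Agrn above Loxl4 in Tyro3_OE and resistant libraries. Col4a2 and Sparc were above Fn1 in parental replicate 1 and below it in parental replicate 2. The collagens of ordinary connective tissue were nearly absent: Col1a2 and Col3a1 had at most 2 reads in any library and Col1a1 at most 32. The proteoglycan gene Bgn had at most 4. Between 22 and 23 of the 65 genes exceeded 1 FPKM in each group and 14 to 16 exceeded 10 FPKM. The plot of FPKM shows basement membrane genes and fibronectin among the highest in every group.

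**Figure D1:**
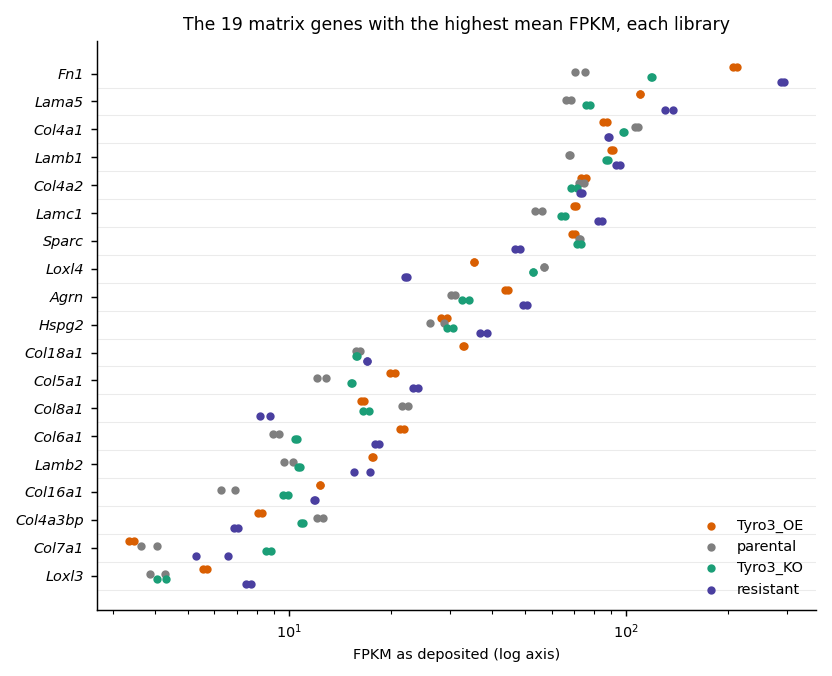
FPKM as deposited (log axis) of the 19 matrix genes with the highest mean, one point per library, with the groups in 4 rows and colours per gene. Fn1 spans the widest range at the top, between 70.2 and 292.8 FPKM, while Col4a2 stays between 68.4 and 75.9 FPKM in all 8 libraries.

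Differences were tested gene by gene with edgeR's quasi-likelihood test over the 14513 genes with enough reads, and a gene is said to have risen or fallen where its Benjamini-Hochberg adjusted p was under 0.05. Of the 65 genes 43 were tested, and 22 had too few reads. A gene could enter through its higher group alone, so the counts below describe the tested genes and say nothing of the other 22. Such entry favours large changes among genes with few reads, so counts of large changes are no trait of the set. Changes are log2 fold changes of CPM with their standard error (SE). "With overexpression" stands for Tyro3_OE over parental cells and "with knockout" for Tyro3_KO over resistant cells, and a pair of changes with no other label gives overexpression first and knockout second.

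In Tyro3_OE against parental cells 27 of the 43 rose and 7 fell, where 66.2% of all tested genes changed, 32.5% upward and 33.7% downward. Their median log2 fold change was 0.82, against 0.03 over all tested genes. With trends in gene length and GC content removed 11 fell. Of the 43, 16 rose and 2 fell by at least 1 on the log2 scale, a size that 18.7% of all tested genes reached. The filter bears on this count, since some of the 16 were near 0 in parental cells. Lama4, Col6a2 and Col11a2 had 10, 7 and 6 reads in the 2 parental libraries together. Fibronectin, the trimer of Lama5, Lamb1 and Lamc1, agrin and collagens V, VI and XVIII rose, while tenascin C, Loxl4 and Col8a1 fell.

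In Tyro3_KO against resistant cells 15 of the 43 rose and 20 fell, where 72.7% of all tested genes changed, 37.1% upward and 35.6% downward. The median was -0.10, against -0.02 over all tested genes. With trends in gene length and GC content removed, 17 rose and 15 fell and the median was 0.16. Changes of at least 1 on the log2 scale were upward in 10 and downward in 8 of the 43, and 27.1% of all tested genes changed that much. Fibronectin, Lama5, agrin and collagens V and VI fell, while Tnc, Loxl4, Col8a1, Col23a1, Lamb3 and Dcn rose.

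These 2 comparisons share no library, so their calls can be crossed. Of the 43, 17 rose with Tyro3 overexpression and fell with its knockout, where 22.5% of all tested genes did so. The reverse held for 7, among them Col4a3bp, against 25.9% of all tested genes. A further 5 rose in both (Col12a1, Col23a1, Dcn, Lama3 and Lama4), against 3.67% of all tested genes. The remaining 14 were called in 1 comparison or in neither, and Col4a2 and Vcan were among those called in neither. Not all of these calls held under the alternatives described below. Of the 17, Col18a1, Lamb1, Col4a6, Col5a3, Col9a3 and Col16a1 lost the knockout call under at least 1 alternative. So did Col4a1 of the 7 and Lama3 and Lama4 of the 5, and Col7a1 of the 7 lost its overexpression call. Some of the 17, such as Col6a2 and Col11a2, were near 0 in parental cells, so the filter bears on this count too. The plot of the 2 changes shows the 17 in the lower right and the 7 in the upper left.

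**Figure D2:**
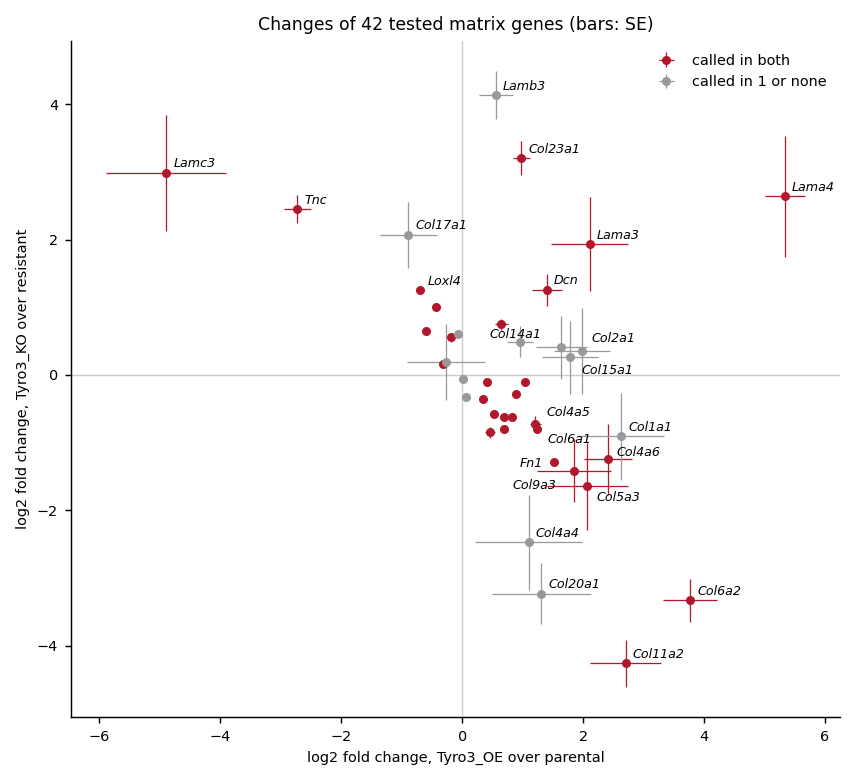
Log2 fold change in Tyro3_OE over parental cells (horizontal) and in Tyro3_KO over resistant cells (vertical) for 42 of the 43 tested matrix genes, with bars of 1 SE, red where both passed the test. Col6a2 and Col11a2 lie farthest to the lower right, Lamc3 and Tnc to the upper left, and Lama4 stands alone at the far right.

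In resistant against parental cells 20 of the 43 rose and 12 fell, where 71.2% of all tested genes changed, 35.1% upward and 36.1% downward. Of the 43, 9 rose and 8 fell by at least 1 on the log2 scale, against 27.4% of all tested genes. The median was 0.25, against 0.03 over all tested genes, and it was 0.064 without parental replicate 1, 0.49 without parental replicate 2 and 0.036 with length and GC trends removed. In Tyro3_KO against parental cells 13 rose, 6 fell and 24 did not pass the test, where 36.3% of all tested genes changed, 18.1% upward and 18.3% downward. Without Tyro3_KO replicate 1 the number that fell was 3. At least 1 on the log2 scale was reached upward by 4 and downward by 1, against 4.33% of all tested genes. In resistant against Tyro3_OE cells 13 rose and 17 fell, where 55.3% of all tested genes changed, 27.0% upward and 28.3% downward. Of these 4 rose and 11 fell by at least 1 on the log2 scale, against 11.0% of all tested genes. Each of these 3 comparisons shares libraries with both of the first 2, so their values are given beside them and not as a second line of evidence. Levels of the better-expressed genes are plotted by library.

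**Figure D3:**
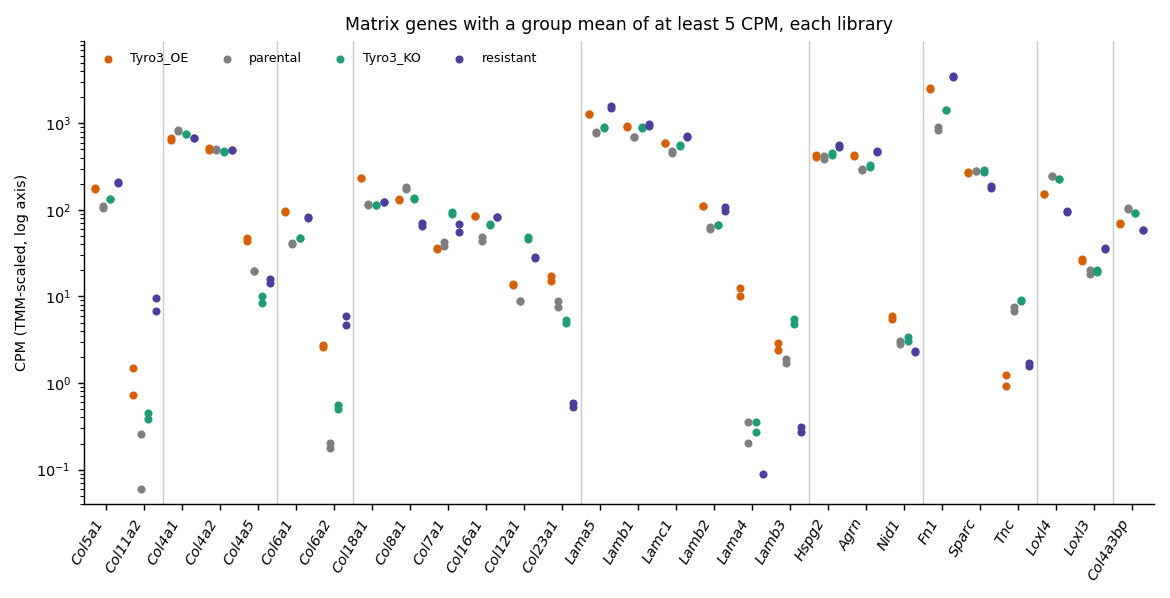
CPM of each library (log axis) for 28 matrix genes with at least 5 CPM in the mean of the highest group, ordered by class with Tyro3_OE, parental, Tyro3_KO and resistant from left to right. In Fn1, Lama5, Agrn and Col5a1 the parental points lie lowest, in Loxl4, Col8a1 and Col4a3bp the resistant points lie lowest, and a resistant Lama4 library with 0 reads is not drawn.

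Of 10 laminin chains 9 were tested. In Tyro3_OE against parental cells 6 rose, 1 fell and 2 did not pass, where 32.5% of all tested genes rose and 33.7% fell. In Tyro3_KO against resistant cells 4 rose, 4 fell and 1 did not pass, where 37.1% of all tested genes rose and 35.6% fell. Lama5 (ENSMUSG00000015647, chromosome 2, 180176373 to 180225859, minus strand in GRCm38), the alpha chain of the laminins of most mature epithelial basement membranes, stood at 1285 and 1279.7 CPM in Tyro3_OE libraries, against 777 and 805 CPM in parental ones. It stood at 884 and 910.2 CPM in Tyro3_KO libraries, against 1516 and 1600.3 CPM in resistant ones. The libraries of each group kept together and neither pair overlapped. The log2 fold change of Lama5 was 0.70 (SE 0.04, adjusted p = 2.66e-19) in Tyro3_OE over parental cells, -0.80 (SE 0.04, adjusted p = 1.20e-21) in Tyro3_KO over resistant cells and 0.98 (SE 0.04, adjusted p = 7.88e-25) in resistant over parental cells. With trends in gene length and GC content removed these became 0.34, -0.49 and 0.62, and all 3 still passed.

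Its partners had smaller log2 fold changes. Lamb1 (ENSMUSG00000002900, chromosome 12, 31265234 to 31329644, plus strand), a beta chain, stood at 916 and 923 CPM in Tyro3_OE and 692 and 689 CPM in parental libraries, a log2 fold change of 0.41 (SE 0.04, adjusted p = 1.77e-12). In Tyro3_KO it stood at 888 and 898 CPM, against 972 and 944 CPM in resistant libraries, a log2 fold change of -0.10 (SE 0.04, adjusted p = 0.0203) that was lost under 7 of 16 alternatives and came to -0.01 with length and GC trends removed. Lamb1 was also 0.37 (SE 0.04) higher on the log2 scale in Tyro3_KO than in parental cells. Lamc1 (ENSMUSG00000026478, chromosome 1, 153218922 to 153332786, minus strand), the gamma chain, stood at 592 and 597 CPM in Tyro3_OE and 455 and 478 CPM in parental libraries, and at 544 and 558 CPM in Tyro3_KO and 714 and 693 CPM in resistant libraries. Neither pair overlapped, and the log2 fold changes of Lamc1 were 0.35 (SE 0.04) and -0.35 (SE 0.04). For Lamb1 and Lamc1 the change with overexpression came to 0.25 and 0.21 with length and GC trends removed. Lamb2, the beta chain that replaces Lamb1 at neuromuscular and kidney basement membranes, had larger ones. It stood at 110.5 and 109 CPM in Tyro3_OE and 64.3 and 60.4 CPM in parental libraries, and at 66.2 and 67.3 CPM in Tyro3_KO and 96.7 and 108 CPM in resistant libraries. It changed by 0.82 (SE 0.06) and -0.62 (SE 0.05) on the log2 scale, again without overlap in either pair.

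Because the chains of a trimer assemble together, their ratio within a library was also taken, which does not depend on library scaling. Reads of Lama5 over reads of Lamb1 gave 1.40 and 1.39 in Tyro3_OE and 1.12 and 1.17 in parental libraries. The same ratio was 0.996 and 1.01 in Tyro3_KO and 1.56 and 1.70 in resistant libraries. Against Lamc1 the ratio of Lama5 was 2.17 and 2.14 in Tyro3_OE and 1.71 and 1.68 in parental libraries, and 1.62 and 1.63 in Tyro3_KO and 2.12 and 2.31 in resistant libraries. The alpha chain was thus higher against its partners in Tyro3_OE than in parental libraries and lower in Tyro3_KO than in resistant ones, with no overlap in either comparison. These ratios are of reads and are not corrected for length, which is the same in every library. Nor are they corrected for length and GC trends that differ between libraries. With those removed, the log2 fold changes with overexpression lay closer together, at 0.34 for Lama5, 0.25 for Lamb1 and 0.21 for Lamc1. With knockout they were -0.49 for Lama5 and -0.01 for Lamb1. That of Lamc1 with knockout lay between -0.50 and -0.29 over all 16 alternatives.

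**Figure D4:**
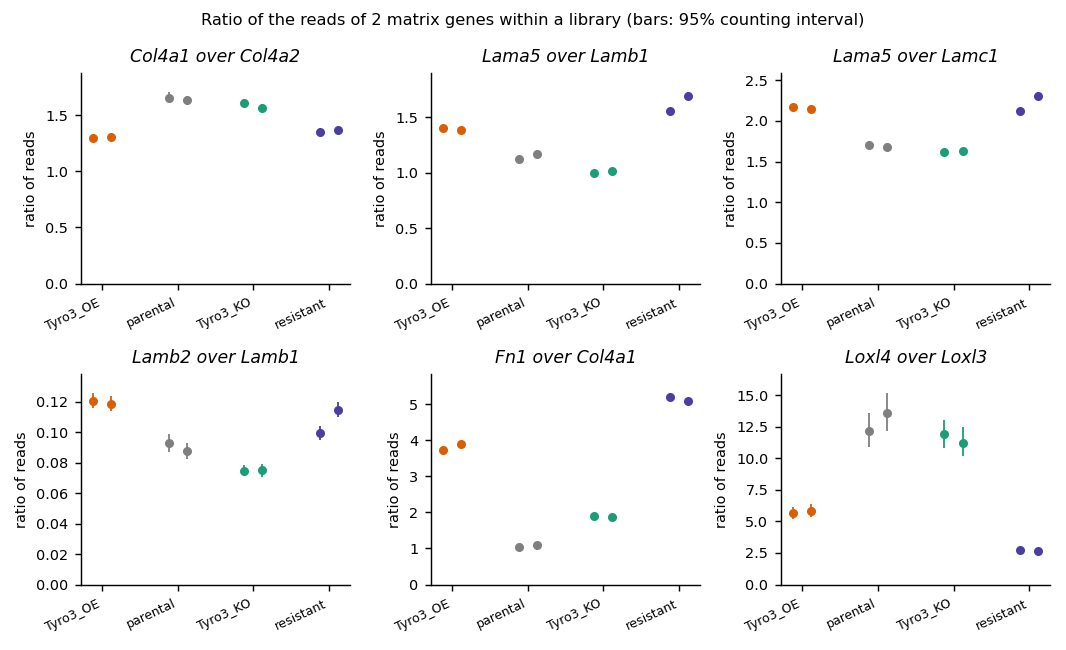
Ratio of the reads of 2 matrix genes within each library, with 95% counting intervals, for 6 gene pairs and with Tyro3_OE left of parental and Tyro3_KO left of resistant. Lama5 over Lamb1, Lama5 over Lamc1 and Fn1 over Col4a1 are higher in Tyro3_OE and resistant libraries, while Col4a1 over Col4a2 and Loxl4 over Loxl3 are higher in parental and Tyro3_KO libraries.

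The bases just upstream of Lama5 and of Loxl4 are shown because Lama5 and the enzyme gene Loxl4, described below, are abundant genes that moved in opposite directions in both comparisons. Both are from RefSeq on GRCm38.p6, 5′ to 3′ on the gene's strand, ending at the base before the annotated start, chr2:180225860-180226109, minus strand, and chr19:42612814-42613056, minus strand. Capitals mark GGGCGG, the GC box that Sp factors bind, or its reverse complement CCGCCC.
Lama5: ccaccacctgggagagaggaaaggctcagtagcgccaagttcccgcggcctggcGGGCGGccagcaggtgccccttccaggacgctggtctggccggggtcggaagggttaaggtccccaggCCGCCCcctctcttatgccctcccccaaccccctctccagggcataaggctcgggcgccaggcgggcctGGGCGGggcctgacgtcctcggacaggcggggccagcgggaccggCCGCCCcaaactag
Loxl4: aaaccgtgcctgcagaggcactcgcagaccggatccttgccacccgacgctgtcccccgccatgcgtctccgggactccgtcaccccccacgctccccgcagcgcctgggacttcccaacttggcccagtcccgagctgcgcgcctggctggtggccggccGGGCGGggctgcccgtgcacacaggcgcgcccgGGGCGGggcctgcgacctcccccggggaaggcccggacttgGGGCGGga
The Lama5 stretch holds 4 such matches and the Loxl4 stretch 3. Of the 65 genes 47 had a promoter in the RefSeq table, with 52 windows, and 33 of these windows (63.5%) held the motif on either strand within 250 bases, against 32.7% of all 32851 windows. CCAAT was in 26.9% of the 52 windows and 33.8% of all, TATAAA in 13.5% and 12.4%, and TGANTCA, the AP-1 motif, in 1.92% and 6.75%. The motifs were searched on both strands, none contains another, and a match is not a binding site.

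Other laminin chains had fewer reads and followed other patterns. Lama4 (ENSMUSG00000019846, chromosome 10, 38965515 to 39110188, plus strand), an alpha chain of endothelial and mesenchymal basement membranes, stood at 12.5 and 10.2 CPM in Tyro3_OE libraries, against 0.356 and 0.205 CPM in parental ones. It had 7 and 7 reads in Tyro3_KO and 2 and 0 reads in resistant libraries. Lama4 was thus clearly present in Tyro3_OE cells and near 0 in the other groups. It rose with overexpression by 5.34 (SE 0.34, adjusted p = 1.66e-18). Its 14 reads in Tyro3_KO against 2 in resistant libraries give a ratio of 6.89 (95% counting interval 1.58 to 62.4), and the fitted log2 fold change of 2.64 (SE 0.90) was 5.79 without resistant replicate 1, which leaves a resistant library of 0 reads so that the value is no bound, and 1.73, no longer past the test, without resistant replicate 2. The ratio of resistant to Tyro3_OE reads of Lama4 was 0.00394 (95% counting interval 0.000475 to 0.0143).

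Lamb3 and Lama3 encode a beta and an alpha chain of the laminin that anchors epidermis and mammary epithelium through hemidesmosomes. Lamb3 (ENSMUSG00000026639, chromosome 1, 193207699 to 193343878, plus strand) stood at 2.42 and 2.93 CPM in Tyro3_OE and 1.72 and 1.90 CPM in parental libraries, and at 4.86 and 5.55 CPM in Tyro3_KO and 0.310 and 0.271 CPM in resistant libraries. The Tyro3_KO libraries were highest and the resistant ones lowest. Lamb3 had a log2 fold change of 4.13 (SE 0.35, adjusted p = 2.22e-14) in Tyro3_KO over resistant cells and -2.62 (SE 0.42, adjusted p = 4.01e-07) in resistant over parental cells, and in Tyro3_OE over parental cells it was 0.56 (SE 0.28, adjusted p = 0.0765), short of the threshold. Lama3 had 30 and 18 reads in Tyro3_OE and 2 and 6 reads in parental libraries, and 17 and 11 reads in Tyro3_KO and 3 and 4 reads in resistant libraries. It rose by 2.11 (SE 0.64) and 1.93 (SE 0.69) in the 2 comparisons, but without Tyro3_OE replicate 1 or parental replicate 1 the first was lost, and without Tyro3_KO replicate 1, without resistant replicate 1 or with DESeq2 the second. Lamc3, a gamma chain, had 1 and 0 reads in Tyro3_OE, 8 and 20 in parental, 15 and 11 in Tyro3_KO and 2 and 1 in resistant libraries. The ratio of Lamc3 reads was 0.0260 (95% counting interval 0.000637 to 0.158) in Tyro3_OE over parental and 8.53 (95% counting interval 2.61 to 44.01) in Tyro3_KO over resistant libraries. Antisense exons of Gm13441 cover 6.27% of the exon bases of Lamc3. Lama2 had at most 5 reads in a library and was not tested.

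Collagen IV, the network collagen of the basement membrane, is made from pairs of genes that lie head to head and are transcribed in opposite directions. Col4a1 (ENSMUSG00000031502, chromosome 8, 11198423 to 11312826, minus strand) and Col4a2 (ENSMUSG00000031503, chromosome 8, 11312805 to 11449287, plus strand) overlap by 22 bases at their 5′ ends. Col4a1 stood at 669.5 and 649 CPM in Tyro3_OE and 814 and 835 CPM in parental libraries, and at 747 and 756 CPM in Tyro3_KO and 672 and 675 CPM in resistant libraries. Neither pair overlapped. Col4a1 fell in Tyro3_OE over parental cells, with a log2 fold change of -0.32 (SE 0.04, adjusted p = 1.45e-09), and rose in Tyro3_KO over resistant cells by 0.16 (SE 0.04, adjusted p = 4.54e-04). With upper-quartile scaling, which shifts the median of all genes by more than 0.1, these became -0.18 and 0.01, and the second no longer passed. With length and GC trends removed they were -0.55 and 0.32.

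Col4a2 stood at 515 and 497 CPM in Tyro3_OE, 491 and 512 CPM in parental, 464 and 484 CPM in Tyro3_KO and 498 and 493 CPM in resistant libraries. The first 2 groups overlapped and the last 2 lay close together. The test was not passed, with log2 fold changes of 0.01 (SE 0.04, adjusted p = 0.808) in Tyro3_OE over parental and -0.06 (SE 0.04, adjusted p = 0.150) in Tyro3_KO over resistant cells. These values of Col4a2 turned to -0.27 and 0.18 with length and GC trends removed, and in resistant over parental cells -0.02 turned to 0.14 with upper-quartile scaling. The ratio of Col4a1 to Col4a2 reads does not rest on scaling, but length and GC trends were not removed from it. It was 1.30 and 1.31 in Tyro3_OE and 1.66 and 1.63 in parental libraries, and 1.61 and 1.56 in Tyro3_KO and 1.35 and 1.37 in resistant libraries. The read ratio of the 2 chains, which join in a fixed proportion in the common trimer, was thus lower in Tyro3_OE than in parental libraries and higher in Tyro3_KO than in resistant ones, with no overlap in either comparison.

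Col4a5 (ENSMUSG00000031274, chromosome X, 141475385 to 141689234, plus strand) and Col4a6 (ENSMUSG00000031273, chromosome X, 141165403 to 141474076, minus strand) lie head to head with 1308 bases between their starts. Col4a5 stood at 47.8 and 44.00 CPM in Tyro3_OE and 19.8 and 19.8 CPM in parental libraries, and at 8.51 and 9.997 CPM in Tyro3_KO and 14.2 and 16.1 CPM in resistant libraries. Tyro3_OE cells had the highest and Tyro3_KO cells the lowest level, with no overlap between any groups. The log2 fold change of Col4a5 was 1.21 (SE 0.09, adjusted p = 2.90e-16) in Tyro3_OE over parental cells, -0.72 (SE 0.11, adjusted p = 1.74e-07) in Tyro3_KO over resistant cells and -0.39 (SE 0.10) in resistant over parental cells. Col4a6 had 93 and 82 reads in Tyro3_OE and 8 and 16 in parental libraries, and 12 and 3 in Tyro3_KO and 21 and 14 in resistant libraries. It rose with overexpression by 2.41 (SE 0.40, adjusted p = 1.01e-06). In Tyro3_KO over resistant cells its log2 fold change was -1.25 (SE 0.53, adjusted p = 0.0323), which was lost without Tyro3_KO replicate 2, where it was -0.72, without resistant replicate 1, with DESeq2 and with no filter, and was -2.31 without Tyro3_KO replicate 1.

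The stretches before the starts of these 2 neighbours are given because both genes rose with overexpression. They are from RefSeq on GRCm38.p6, 5′ to 3′ on each gene's own strand, chrX:141475169-141475384, plus strand, and chrX:141474077-141474326, minus strand. Capitals mark CCAAT in Col4a5 and CCGCCC, the reverse complement of GGGCGG, in Col4a6.
Col4a5: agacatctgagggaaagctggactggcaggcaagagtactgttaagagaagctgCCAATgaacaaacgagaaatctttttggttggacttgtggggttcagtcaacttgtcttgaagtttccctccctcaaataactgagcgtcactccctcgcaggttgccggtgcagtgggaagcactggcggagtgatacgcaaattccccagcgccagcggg
Col4a6: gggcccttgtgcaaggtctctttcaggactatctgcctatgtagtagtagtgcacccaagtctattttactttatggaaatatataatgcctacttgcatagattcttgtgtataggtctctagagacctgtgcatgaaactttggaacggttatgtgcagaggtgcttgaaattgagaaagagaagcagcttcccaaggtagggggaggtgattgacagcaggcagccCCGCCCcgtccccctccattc
The 2 stretches hold 1 match each and share none of the 4 motifs searched.

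The third pair, Col4a3 and Col4a4, whose chains form the glomerular and alveolar network with Col4a5, lies 71 bases apart and was close to silent. Col4a3 had at most 4 reads in a library. Col4a4 had 11 and 4 reads in Tyro3_OE and 2 and 3 in parental libraries, and 1 and 6 in Tyro3_KO and 22 and 18 in resistant libraries. It fell in Tyro3_KO over resistant cells, with a log2 fold change of -2.47 (SE 0.70, adjusted p = 0.00174), which was -1.53 and no longer past the test without Tyro3_KO replicate 1, and -4.32 without Tyro3_KO replicate 2.

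Of the linkers, Agrn (ENSMUSG00000041936, chromosome 4, 156165290 to 156197488, minus strand), the heparan sulfate proteoglycan agrin that binds laminin gamma chains, stood at 425 and 415 CPM in Tyro3_OE and 297 and 288 CPM in parental libraries, and at 311 and 326 CPM in Tyro3_KO and 468 and 481 CPM in resistant libraries. No pair overlapped. Its log2 fold changes were 0.52 (SE 0.04, adjusted p = 1.31e-15) in Tyro3_OE over parental cells, 0.29 with length and GC trends removed, and -0.58 (SE 0.04, adjusted p = 2.04e-17) in Tyro3_KO over resistant cells. Hspg2 (ENSMUSG00000028763, chromosome 4, 137468769 to 137570630, plus strand), which encodes perlecan, stood at 414 and 429 CPM in Tyro3_OE and 384 and 425 CPM in parental libraries, which overlapped. In Tyro3_KO it stood at 431 and 449 CPM, below the 539.6 and 565 CPM of resistant libraries. Hspg2 had a log2 fold change of 0.06 (SE 0.04, adjusted p = 0.231) in the first comparison and -0.33 (SE 0.04, adjusted p = 3.85e-09) in the second. With length and GC trends removed both signs turned, to -0.35 and 0.06. Nid1 (ENSMUSG00000005397, chromosome 13, 13437551 to 13512269, plus strand), nidogen, which bridges laminin and collagen IV, stood at 5.48 and 6.01 CPM in Tyro3_OE and 2.85 and 3.03 CPM in parental libraries, and at 3.38 and 3.08 CPM in Tyro3_KO and 2.26 and 2.34 CPM in resistant libraries. Tyro3_OE libraries were the highest. Nid1 rose with overexpression by 0.96 (SE 0.21, adjusted p = 1.16e-04), and in Tyro3_KO over resistant cells its log2 fold change of 0.49 (SE 0.23, adjusted p = 0.0538) missed the threshold.

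Fibronectin, which cells assemble into fibrils through integrins, changed in each of the 5 comparisons of groups that were tested. Fn1 (ENSMUSG00000026193, chromosome 1, 71585520 to 71653200, minus strand) stood at 2489 and 2538 CPM in Tyro3_OE libraries, against 843 and 906 CPM in parental ones. It stood at 1425 and 1414 CPM in Tyro3_KO libraries, against 3498 and 3429 CPM in resistant ones. The 4 groups were fully apart, in the order parental, Tyro3_KO, Tyro3_OE and resistant. The log2 fold change of Fn1 was 1.52 (SE 0.04, adjusted p = 5.87e-31) in Tyro3_OE over parental, -1.29 (SE 0.04, adjusted p = 6.24e-29) in Tyro3_KO over resistant, 1.99 (SE 0.04, adjusted p = 1.27e-35) in resistant over parental and 0.70 (SE 0.04) in Tyro3_KO over parental cells. These 4 calls held under all 16 alternatives. Antisense exons of Apol7d cover 2.50% of the exon bases of Fn1, and the strand used in counting is not given in the sources used here. Reads of Fn1 over reads of Col4a1 gave 3.72 and 3.91 in Tyro3_OE and 1.04 and 1.08 in parental libraries, and 1.91 and 1.87 in Tyro3_KO and 5.21 and 5.08 in resistant libraries.

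Tenascin C, an anti-adhesive glycoprotein of wound and tumour matrix, moved the other way. Tnc (ENSMUSG00000028364, chromosome 4, 63959785 to 64047015, minus strand) stood at 0.926 and 1.24 CPM in Tyro3_OE libraries, against 7.60 and 6.83 CPM in parental ones, and at 8.78 and 9.09 CPM in Tyro3_KO libraries, against 1.68 and 1.58 CPM in resistant ones. Both pairs were apart, with the low values in Tyro3_OE and resistant libraries. Its log2 fold changes were -2.72 (SE 0.23, adjusted p = 1.84e-14) in Tyro3_OE over parental, 2.45 (SE 0.21, adjusted p = 1.69e-14) in Tyro3_KO over resistant and -2.14 (SE 0.22, adjusted p = 4.28e-12) in resistant over parental cells. On the FPKM scale Tnc stayed between 0.116 and 1.14 FPKM, so it was a minor transcript beside Fn1. The bases before its annotated start are shown as a contrast to Lama5 and Loxl4, chr4:64047016-64047265, minus strand, on GRCm38.p6 from RefSeq, with GGGCGG and TATAAA in capitals.
Tnc: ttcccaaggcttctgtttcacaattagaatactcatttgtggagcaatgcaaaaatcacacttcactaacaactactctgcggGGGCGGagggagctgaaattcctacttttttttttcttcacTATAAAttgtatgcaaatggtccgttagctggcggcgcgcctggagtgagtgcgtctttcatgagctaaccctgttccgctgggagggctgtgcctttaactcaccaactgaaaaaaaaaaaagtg
It holds 1 match to each.

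Sparc (ENSMUSG00000018593, chromosome 11, 55394500 to 55423183, minus strand), a collagen-binding matricellular protein, stood at 273 and 267 CPM in Tyro3_OE and 282 and 285 CPM in parental libraries, and at 286 and 277 CPM in Tyro3_KO and 188 and 181 CPM in resistant libraries. The resistant libraries alone stood low. Sparc rose in Tyro3_KO over resistant cells by 0.61 (SE 0.04, adjusted p = 7.52e-18) and fell in resistant over parental cells, with a log2 fold change of -0.62 (SE 0.04, adjusted p = 5.35e-18). In Tyro3_OE over parental cells its log2 fold change of -0.07 (SE 0.04, adjusted p = 0.111) did not reach the threshold. Fbn1, fibrillin of elastic microfibrils, had 15 reads in Tyro3_OE, 20 in parental, 20 in Tyro3_KO and 2 in resistant libraries and was not tested. The ratio of its reads in Tyro3_KO over resistant libraries was 9.84 (95% counting interval 2.39 to 86.8).

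Among the fibrillar collagens 5 of 10 were tested, and all 5 rose with overexpression, where 32.5% of all tested genes rose. With knockout 3 fell, where 35.6% of all tested genes fell. Of the 5, Col1a1, Col2a1, Col5a3 and Col11a2 had 6, 20, 7 and 6 reads in the 2 parental libraries together. Genes so rare there could enter the test through a higher group, so the count is no trait of the class. Col5a1 (ENSMUSG00000026837, chromosome 2, 27886425 to 28039514, plus strand), a chain of the collagen V that starts fibrils, had the most reads. It stood at 179 and 172 CPM in Tyro3_OE and 112 and 106 CPM in parental libraries, and at 134 and 133 CPM in Tyro3_KO and 202 and 209 CPM in resistant libraries. No groups overlapped. Col5a1 had a log2 fold change of 0.69 (SE 0.05, adjusted p = 6.70e-18) in Tyro3_OE over parental cells, 0.43 with length and GC trends removed, and -0.63 (SE 0.04, adjusted p = 3.36e-17) in Tyro3_KO over resistant cells. Col11a2 (ENSMUSG00000024330, chromosome 17, 34039437 to 34066685, plus strand), a collagen XI chain known from cartilage, stood at 0.725 and 1.48 CPM in Tyro3_OE and 0.0594 and 0.257 CPM in parental libraries. It stood at 0.389 and 0.454 CPM in Tyro3_KO and 6.72 and 9.51 CPM in resistant libraries, the highest of the 4 groups. Its log2 fold changes were 2.70 (SE 0.58, adjusted p = 7.43e-05), or 4.09 without parental replicate 2, in Tyro3_OE over parental and -4.26 (SE 0.34, adjusted p = 4.46e-15) in Tyro3_KO over resistant cells.

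The other 3 were rare. Col1a1, the main chain of collagen I, had 32 and 21 reads in Tyro3_OE and 6 and 0 in parental libraries, and 7 and 8 in Tyro3_KO and 10 and 18 in resistant libraries. Its rise of 2.63 (SE 0.71, adjusted p = 0.00121) with overexpression was 7.61 without parental replicate 1, which leaves a parental library of 0 reads so that the value is no bound, and 1.56, below the threshold, without parental replicate 2. Col2a1, the collagen of cartilage, had 42 and 67 reads in Tyro3_OE and 8 and 12 in parental libraries, and at most 9 in the other groups. Col5a3 had 24 and 17 reads in Tyro3_OE and 2 and 5 in parental libraries, and 7 and 3 in Tyro3_KO and 11 and 20 in resistant libraries. With overexpression Col5a3 rose by 2.07 (SE 0.67), and with knockout its log2 fold change was -1.64 (SE 0.64). The first call was lost with DESeq2, without Tyro3_OE replicate 1 and without parental replicate 1, and the second under 5 alternatives, among them without Tyro3_KO replicate 2 and without resistant replicate 2. Col1a2, Col3a1, Col11a1, Col24a1 and Col27a1 had between 0 and 10 reads in a library.

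Collagen VI makes beaded filaments between basement membrane and stroma. Col6a1 (ENSMUSG00000001119, chromosome 10, 76708792 to 76726168, minus strand) stood at 95.5 and 98.1 CPM in Tyro3_OE and 41.9 and 40.5 CPM in parental libraries, and at 47.5 and 46.8 CPM in Tyro3_KO and 82.9 and 80.6 CPM in resistant libraries. The low pair in both cases was far below the high one. Col6a1 had a log2 fold change of 1.23 (SE 0.06, adjusted p = 6.89e-23) in Tyro3_OE over parental cells and -0.79 (SE 0.06, adjusted p = 8.52e-17) in Tyro3_KO over resistant cells. Col6a2 (ENSMUSG00000020241, chromosome 10, 76595762 to 76623630, minus strand), its partner chain, had far fewer reads, at 2.62 and 2.77 CPM in Tyro3_OE and 0.178 and 0.205 CPM in parental libraries, and at 0.505 and 0.555 CPM in Tyro3_KO and 4.73 and 5.997 CPM in resistant libraries. Col6a2 changed by 3.77 (SE 0.45) and -3.33 (SE 0.32), and by 4.76 (SE 0.41) in resistant over parental cells. Reads of Col6a1 over Col6a2 thus came to 36.5 and 35.5 in Tyro3_OE and 235 and 197 in parental libraries, where Col6a2 had 3 and 4 reads, and to 94.1 and 84.2 in Tyro3_KO and 17.5 and 13.4 in resistant libraries. The third chain, Col6a3, had at most 8 reads in a library, and Col6a5 and Col6a6 at most 9, so they were not tested.

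Of the other collagens 11 of 19 were tested. With overexpression 7 rose and 2 fell, where 32.5% of all tested genes rose and 33.7% fell. With knockout 5 rose and 4 fell, where 37.1% of all tested genes rose and 35.6% fell. Col18a1 (ENSMUSG00000001435, chromosome 10, 77052178 to 77166548, minus strand), a basement membrane collagen that carries the endostatin fragment, stood at 236 and 236 CPM in Tyro3_OE libraries, against 114 and 117 CPM in parental ones, and at 114 and 115 CPM in Tyro3_KO libraries, against 122 and 122 CPM in resistant ones. Tyro3_OE cells stood apart and the other 3 groups lay close together. It rose with overexpression by 1.03 (SE 0.04, adjusted p = 7.92e-25). In Tyro3_KO over resistant cells its log2 fold change was -0.10 (SE 0.04, adjusted p = 0.0422), which was lost under 10 alternatives, DESeq2 among them, and turned to 0.16 with length and GC trends removed. Col15a1, its close relative, had 46 and 54 reads in Tyro3_OE and 10 and 11 in parental libraries, and 19 and 7 in Tyro3_KO and 7 and 14 in resistant libraries. It rose with overexpression by 1.79 (SE 0.46, adjusted p = 7.97e-04) and did not pass with knockout (adjusted p = 0.681).

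Col8a1 (ENSMUSG00000068196, chromosome 16, 57624258 to 57754737, minus strand), a short-chain network collagen of vessel walls, stood at 134 and 130.2 CPM in Tyro3_OE and 173 and 182 CPM in parental libraries, and at 133 and 139 CPM in Tyro3_KO and 70.01 and 65.6 CPM in resistant libraries. Parental cells were highest and resistant cells lowest. Col8a1 fell with overexpression, with a log2 fold change of -0.43 (SE 0.05, adjusted p = 2.76e-11), and rose with knockout by 1.0 (SE 0.05, adjusted p = 1.30e-22). Col7a1 (ENSMUSG00000025650, chromosome 9, 108953586 to 108984875, plus strand), the anchoring fibril collagen under epithelia, stood at 35.4 and 36.3 CPM in Tyro3_OE and 42.9 and 38.4 CPM in parental libraries, and at 90.1 and 93.3 CPM in Tyro3_KO and 55.5 and 69.1 CPM in resistant libraries. It was highest in Tyro3_KO cells. It rose by 0.56 (SE 0.07, adjusted p = 6.00e-10) in Tyro3_KO over resistant cells and by 1.17 (SE 0.07, adjusted p = 9.81e-18) over parental cells, and the first was 0.90 with length and GC trends removed. In Tyro3_OE over parental cells its -0.18 (SE 0.08, adjusted p = 0.0415) was lost under 7 of 16 alternatives and came to -0.04 with upper-quartile scaling, -0.57 with length and GC trends removed and -0.11 without parental replicate 1.

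The FACIT collagens decorate fibrils. Col12a1 (ENSMUSG00000032332, chromosome 9, 79598991 to 79718831, minus strand) stood at 13.7 and 14.1 CPM in Tyro3_OE and 8.97 and 8.83 CPM in parental libraries, and at 47.99 and 46.4 CPM in Tyro3_KO and 28.7 and 27.6 CPM in resistant libraries. The 4 groups were apart, parental lowest and Tyro3_KO highest. It rose by 0.65 (SE 0.11, adjusted p = 1.43e-06) with overexpression, by 0.75 (SE 0.08, adjusted p = 1.13e-11) with knockout and by 1.66 (SE 0.10, adjusted p = 2.76e-19) in resistant over parental cells. Col16a1 (ENSMUSG00000040690, chromosome 4, 130047840 to 130099283, plus strand) stood at 85.6 and 84.8 CPM in Tyro3_OE and 43.5 and 48.1 CPM in parental libraries, and at 68.4 and 66.4 CPM in Tyro3_KO and 82.00 and 81.7 CPM in resistant libraries. Its log2 fold changes were 0.89 (SE 0.06, adjusted p = 7.01e-18) and -0.28 (SE 0.06, adjusted p = 1.71e-05). With length and GC trends removed the first became 0.58 and the second 0.00, which did not pass. Col14a1 had 58 and 61 reads in Tyro3_OE and 6 and 22 in parental libraries, and 12 to 22 in the others. It rose with overexpression by 1.64 (SE 0.42, adjusted p = 6.58e-04), which was 1.07 without parental replicate 1 and 2.72 without parental replicate 2. Col20a1 was highest in resistant cells, with 74 and 67 reads there, against 8 and 7 in Tyro3_KO, 6 and 8 in Tyro3_OE and 2 and 2 in parental libraries. Its log2 fold change was -3.23 (SE 0.45, adjusted p = 2.20e-08) in Tyro3_KO over resistant cells. Col9a3, a cartilage FACIT chain, changed by 1.84 (SE 0.61, adjusted p = 0.00761) with overexpression, lost without Tyro3_OE replicate 2, and by -1.42 (SE 0.46, adjusted p = 0.00626) with knockout, lost without Tyro3_KO replicate 2, without resistant replicate 2 and with DESeq2, and -2.22 without Tyro3_KO replicate 1. Antisense exons of Tcfl5 cover 6.07% of its exon bases. Col19a1 had 15 and 9 reads in the Tyro3_KO libraries and 0 in the other 6, at least 3.87-fold higher than in resistant and at least 3.12-fold higher than in parental libraries against a floor of 3 reads per library, and it did not reach the test.

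Transmembrane collagens carry a collagen domain on the cell surface. Col23a1 (ENSMUSG00000063564, chromosome 11, 51289920 to 51583918, plus strand) stood at 17.2 and 15.3 CPM in Tyro3_OE libraries, against 7.48 and 8.88 CPM in parental ones, and at 5.40 and 4.95 CPM in Tyro3_KO libraries, against 0.531 and 0.586 CPM in resistant ones. The resistant libraries had almost none. It rose by 0.98 (SE 0.13, adjusted p = 1.75e-08) with overexpression and by 3.21 (SE 0.26, adjusted p = 3.18e-15) with knockout, and its log2 fold change was -3.87 (SE 0.24, adjusted p = 7.59e-19) in resistant over parental cells. Col17a1, the hemidesmosome collagen, had 21 and 12 reads in Tyro3_OE, 19 and 26 in parental, 45 and 33 in Tyro3_KO and 4 and 14 in resistant libraries. It rose with knockout by 2.07 (SE 0.49, adjusted p = 2.33e-04), or 3.23 without resistant replicate 2. Col13a1 and Col25a1, of the same type, had at most 2 reads in a library.

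The lysyl oxidase family oxidises lysines of collagen and elastin so that they cross-link. Loxl4 (ENSMUSG00000025185, chromosome 19, 42593982 to 42612813, minus strand) stood at 153 and 152 CPM in Tyro3_OE libraries, against 246 and 248 CPM in parental ones, and at 229 and 228 CPM in Tyro3_KO libraries, against 94.96 and 96.4 CPM in resistant ones. The replicates nearly coincided and no groups overlapped. Loxl4 had a log2 fold change of -0.70 (SE 0.04, adjusted p = 1.39e-19) in Tyro3_OE over parental, 1.26 (SE 0.04, adjusted p = 1.38e-28) in Tyro3_KO over resistant and -1.37 (SE 0.04, adjusted p = 6.63e-30) in resistant over parental cells. Loxl3 (ENSMUSG00000000693, chromosome 6, 83034173 to 83052562, plus strand) moved against it, at 26.9 and 26.01 CPM in Tyro3_OE and 20.3 and 18.3 CPM in parental libraries, and at 19.2 and 20.3 CPM in Tyro3_KO and 34.9 and 36.1 CPM in resistant libraries. It changed by 0.46 (SE 0.09) with overexpression and -0.85 (SE 0.08) with knockout. Antisense exons of Htra2 cover 11.6% of the exon bases of Loxl3, the highest share among the 43 tested genes. Reads of Loxl4 over Loxl3 came to 5.68 and 5.86 in Tyro3_OE and 12.2 and 13.6 in parental libraries, and to 11.9 and 11.3 in Tyro3_KO and 2.72 and 2.67 in resistant libraries. Loxl1 and Loxl2 had between 0 and 8 reads in a library.

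Among the proteoglycans Dcn (ENSMUSG00000019929, chromosome 10, 97479609 to 97518143, plus strand), decorin, which binds collagen fibrils and TGF-beta, stood at 5.40 and 4.53 CPM in Tyro3_OE and 2.02 and 1.75 CPM in parental libraries, and at 5.05 and 4.19 CPM in Tyro3_KO and 2.21 and 1.67 CPM in resistant libraries. Both engineered groups were above their controls. Dcn rose by 1.40 (SE 0.25) with overexpression and 1.26 (SE 0.24) with knockout. Vcan, the large proteoglycan versican, had 5 to 16 reads in each library, with log2 fold changes of -0.28 (SE 0.65, adjusted p = 0.723) and 0.19 (SE 0.56, adjusted p = 0.772). Col4a3bp (ENSMUSG00000021669, chromosome 13, 96542618 to 96640167, plus strand), which moves ceramide from the endoplasmic reticulum to the Golgi and is no matrix protein, stood at 70.3 and 68.1 CPM in Tyro3_OE and 107 and 103 CPM in parental libraries, and at 91.3 and 93.00 CPM in Tyro3_KO and 59.1 and 57.8 CPM in resistant libraries. Its log2 fold changes were -0.59 (SE 0.05, adjusted p = 7.42e-14) and 0.66 (SE 0.05, adjusted p = 4.50e-15).

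Whether overexpression in parental cells and knockout in resistant cells moved a gene by equal and opposite amounts was tested as a single contrast, the sum of the 2 log2 fold changes. Tyro3 itself changed by 2.07 (SE 0.07) with overexpression and -2.43 (SE 0.11) with knockout. Its sum of -0.36 (SE 0.14, adjusted p = 0.0346) differed from 0, so equal and opposite changes are not a given for other genes. Among the matrix genes the sum differed from 0 in 24 of the 43, 21 above and 3 below. Of all tested genes 46.7% differed, 24.7% above and 22.0% below. For 7 of the 24 the call was lost under at least 1 alternative. Sums of at least 1 were called above 0 in 10 genes and below 0 in 0, against 11.4% of all tested genes. Lama4 at 7.97 (SE 0.96, adjusted p = 2.19e-09), Lamb3 at 4.69 (SE 0.46, adjusted p = 9.43e-12), Col23a1 at 4.19 (SE 0.29, adjusted p = 1.51e-16) and Lama3 at 4.04 (SE 0.94, adjusted p = 3.82e-04) stood highest. Those sums came from genes that rose in both comparisons or, for Lamb3, rose clearly with knockout alone. Lama5 at -0.10 (SE 0.06, adjusted p = 0.167), Lamc1 at 0.00 (SE 0.06, adjusted p = 0.975), Agrn at -0.06 (SE 0.06, adjusted p = 0.452), Col5a1 at 0.07 (SE 0.06, adjusted p = 0.418) and Tnc at -0.28 (SE 0.33, adjusted p = 0.529) did not differ from 0 by the test. For these 5 genes a sum of 0 lay within the error of the test, which does not show that the 2 changes were equal in size. Lama5 passed the test, at -0.15 with length and GC trends removed and at -0.13 without resistant replicate 1. Fn1 differed a little, at 0.24 (SE 0.06, adjusted p = 9.71e-04), with a change with knockout smaller in size than that with overexpression. The plot of the sums orders 42 of the genes.

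**Figure D5:**
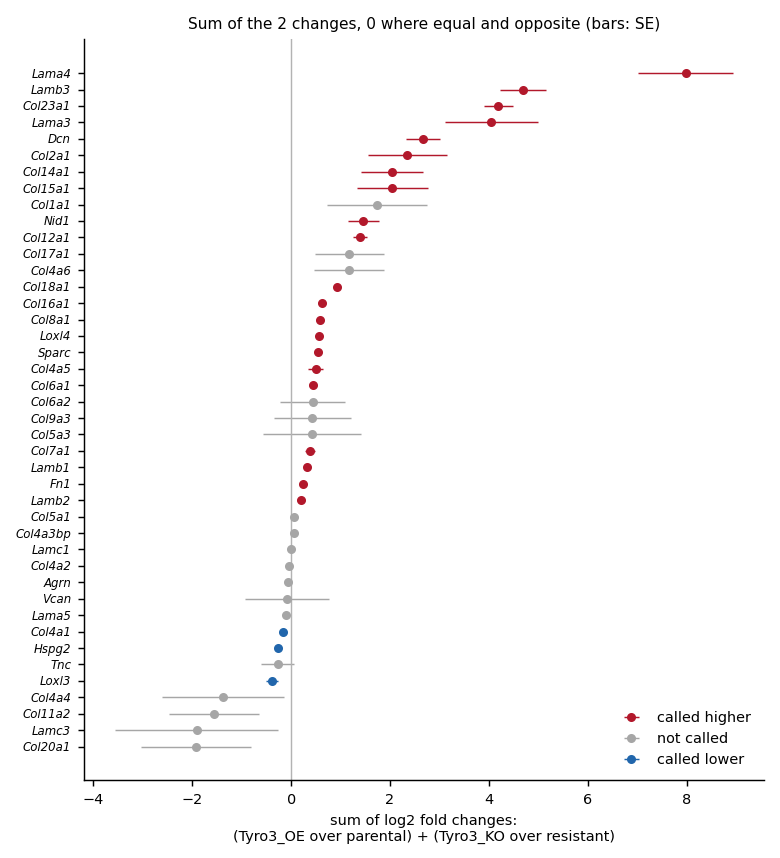
Sum of the log2 fold changes in Tyro3_OE over parental and in Tyro3_KO over resistant cells for 42 of the 43 tested matrix genes, with bars of 1 SE, red or blue where the sum differed from 0 at an adjusted p under 0.05. From Col18a1 at 0.93 up to Lama4 at 7.97 the values lie to the right, while the lowest called one, Loxl3, stands at -0.39.

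Tyro3_KO cells were also set against parental cells and resistant cells against Tyro3_OE cells, and Tyro3_OE was not tested against Tyro3_KO. In Tyro3_KO over parental cells Col12a1 rose by 2.41 (SE 0.10, adjusted p = 1.52e-24), Lamb3 by 1.51 (SE 0.26, adjusted p = 7.12e-06) and Dcn by 1.31 (SE 0.25, adjusted p = 3.58e-05). In the same comparison Col4a5 fell, with a log2 fold change of -1.11 (SE 0.11, adjusted p = 2.11e-11), as did Col23a1 with -0.66 (SE 0.16, adjusted p = 6.75e-04) and Col8a1 with -0.39 (SE 0.05, adjusted p = 1.92e-09). Tnc had 0.31 (SE 0.17, adjusted p = 0.153) and Sparc -0.01 (SE 0.04, adjusted p = 0.855), neither past the threshold. In resistant over Tyro3_OE cells Col11a2 rose by 2.87 (SE 0.28, adjusted p = 7.29e-12) and Col12a1 by 1.02 (SE 0.09, adjusted p = 1.37e-13). Col23a1 fell, with a log2 fold change of -4.85 (SE 0.21, adjusted p = 8.31e-24), and so did Col4a5 with -1.60 (SE 0.09, adjusted p = 6.03e-20), Nid1 with -1.32 (SE 0.21, adjusted p = 1.04e-06) and Col18a1 with -0.95 (SE 0.04, adjusted p = 1.64e-23).

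Genes that process and receive the matrix were taken from 5 lists by role. For each list, the shares to compare are those of all tested genes. With overexpression 32.5% of these rose and 33.7% fell, and with knockout 37.1% rose and 35.6% fell. The counts of the lists were not tested against these shares. Of 24 tested genes of collagen processing 10 rose and 12 fell in Tyro3_OE over parental cells (median -0.31), and 16 rose and 4 fell in Tyro3_KO over resistant cells (median 0.34). Pcolce2, which enhances procollagen cleavage, stood at 35.2 and 37.9 CPM in Tyro3_OE and 121 and 115 CPM in parental libraries, and at 164 and 157 CPM in Tyro3_KO and 20.8 and 17.3 CPM in resistant libraries. It changed by -1.69 (SE 0.06) and 3.08 (SE 0.06). P3h2, a prolyl hydroxylase that acts on collagen IV, rose by 3.62 (SE 0.13) with knockout, and P4hb, a subunit of the prolyl hydroxylase of all collagens, by 0.76 (SE 0.04). Bmp1, the procollagen C-proteinase, rose with overexpression by 0.61 (SE 0.04), whereas Ppib and Plod3, a proline isomerase and a lysyl hydroxylase of the endoplasmic reticulum, changed by -0.73 (SE 0.05) and -0.62 (SE 0.05).

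Of 20 tested matrix receptors 7 rose and 9 fell with overexpression (median -0.13) and 10 rose and 8 fell with knockout (median 0.01). Itga2, the alpha chain of a collagen receptor, stood at 64.7 and 65.2 CPM in Tyro3_KO and 10.1 and 8.57 CPM in resistant libraries, a rise of 2.80 (SE 0.08). Cd44, the hyaluronan receptor, changed by -1.03 (SE 0.04) with overexpression and 0.79 (SE 0.04) with knockout. Itgb4, the laminin receptor chain of hemidesmosomes, rose by 2.23 (SE 0.13) with overexpression, as did Itgb5 by 0.86 (SE 0.04) and the collagen receptor kinase Ddr2 by 0.99 (SE 0.04). Of 24 tested elastic fibre and matricellular genes 11 rose and 6 fell with overexpression (median 0.17) and 10 rose and 10 fell with knockout (median -0.0014). Ltbp4, which holds latent TGF-beta, changed by 0.86 (SE 0.05) and -1.98 (SE 0.04), and Tinagl1, a basement membrane protein, by -1.03 (SE 0.04) and 1.86 (SE 0.04). Ccn1 and Ccn2 (Cyr61 and Ctgf in the files) changed by -2.04 (SE 0.06) and -1.98 (SE 0.09) with overexpression. Thbs1 changed by -1.90 (SE 0.04) with knockout.

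Of 18 tested genes of the TGF-beta pathway, which is known to induce matrix genes, 8 rose and 3 fell with overexpression (median 0.24) and 6 rose and 9 fell with knockout (median -0.18). The receptors Tgfbr3 and Tgfbr1 rose with overexpression by 1.06 (SE 0.05) and 0.87 (SE 0.05). Of 23 tested genes of glycosaminoglycan synthesis 5 rose and 14 fell with overexpression (median -0.21) and 10 rose and 9 fell with knockout (median 0.16). Has2, a hyaluronan synthase, stood at 16.3 and 17.5 CPM in Tyro3_OE and 54.9 and 54.4 CPM in parental libraries, and at 102 and 94.8 CPM in Tyro3_KO and 13.2 and 9.87 CPM in resistant libraries. It changed by -1.69 (SE 0.08) and 3.09 (SE 0.08). Ugdh, which makes the UDP-glucuronate that hyaluronan needs, changed by -0.87 (SE 0.04) and 1.26 (SE 0.05), and Glce, an epimerase of heparan sulfate, by 1.25 (SE 0.06) and -1.51 (SE 0.06).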

How the data were processed

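The members and the companion gene lists were chosen with earlier results of these data known. The authors deposited 3 tables, each for 1 comparison, with raw read counts per gene, normalised signal (counts over a scaling factor particular to each library and table, as the values show), FPKM, and the authors' own log2 fold changes and p-values, per the file headers. CASAVA, STAR and DESeq2 and the builds GRCm38 and mm10 are named in the submitters' processing notes, without roles. Which program counted the reads, and whether by strand, is not given in the sources used here. Of the 43 tested genes 12 have antisense exons on part of their exon bases, between 0.221% and 11.6%.

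The counts of the 3 tables were joined over 24677 genes. A gene that a table did not list was set to 0 in its libraries, and where another table gave the count it was at most 1 read. Coordinates of the 65 genes equal those of GENCODE M21 on GRCm38. Genes were filtered with edgeR 4.0.16 (filterByExpr), scaled by TMM and fitted in 1 quasi-likelihood model with a mean for each of 4 groups of 2 libraries in R 4.3.3. Benjamini-Hochberg adjustment ran over 14513 genes. The SE is the absolute log2 fold change over the root of F. Libraries held 18001482 to 27261282 reads, a floor of 3 reads was 0.110 to 0.167 CPM, and the common coefficient of variation was 3.51%. Replicates of a group differed by more than sampling noise, with chi-square per degree of freedom of 1.98 to 5.25. Counting intervals cover counting error only. Ratios of rare genes used summed reads over summed scaled library sizes with exact intervals.

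All members could be named, and values per library were given for called members of at least 5 CPM with the largest change in their class, up to 4 per class. Others are named where their class is described. A tested member and a companion gene are counted but not reported here. Of each companion list the called genes with the smallest adjusted p, up to 4 per comparison, were eligible. As alternatives, each library was left out, the replicate number was added as a block, trends in length and GC were removed, DESeq2 1.42.0 replaced edgeR, and scaling was by upper quartile or RLE. The filter was dropped or raised to 50 reads in 2 libraries, the fit was limited to the libraries compared, and calls were limited to changes of 1 or more on the log2 scale. The fit was tested on simulated data, where the share of false calls was between 3.39% and 9.29%. It exceeded the nominal threshold in several contrasts, most for the sums of 2 log2 fold changes, at 9.29%. Few genes were changed in the simulation, whereas many were called in the data, so these shares need not hold for the data.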

Additional observations from a re-analysis of the deposited data

Results flagged for a closer look

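In 24 of the 43 tested genes the change with Tyro3 overexpression in parental cells and the change with its knockout in resistant cells were not equal and opposite, by edgeR's test of the sum of the 2 log2 fold changes (adjusted p under 0.05, where 46.7% of all tested genes passed). A sum above 0 means that the gene rose in both comparisons or that its rise in 1 was larger than its fall in the other. For 7 of the 24 the call did not hold under at least 1 alternative.

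Among laminins and their linkers the sums were 7.97 for Lama4, 4.69 for Lamb3, 4.04 for Lama3, 1.46 for Nid1, 0.31 for Lamb1, 0.20 for Lamb2 and -0.27 for Hspg2. The call of Lamb2 was lost under 8 of 15 alternatives. They were DESeq2, no filter, length and GC trends removed and the omission of Tyro3_OE replicate 1, Tyro3_OE replicate 2, parental replicate 2, Tyro3_KO replicate 2 or resistant replicate 1, and its sum came to between 0.13 and 0.24 in them. Among collagens the sums were 4.19 for Col23a1, 2.34 for Col2a1, 2.05 for Col14a1, 2.04 for Col15a1, 1.39 for Col12a1 and 0.93 for Col18a1. The smaller sums of collagens were 0.61 for Col16a1, 0.57 for Col8a1, 0.49 for Col4a5, 0.44 for Col6a1, 0.38 for Col7a1 and -0.16 for Col4a1. Several of these calls of collagens were lost under alternatives. Col15a1 did not pass with DESeq2, with no filter, without Tyro3_OE replicate 2 (1.92), without Tyro3_KO replicate 1 (1.39) or without resistant replicate 1 (1.62). Col2a1 did not pass with DESeq2, without Tyro3_OE replicate 2 (1.97) or without resistant replicate 1 (2.04). Col14a1 did not pass with no filter or without parental replicate 1 (1.49), and without parental replicate 2 it came to 3.14. Col7a1 did not pass with no filter or without resistant replicate 1 (0.23). Col4a1 did not pass without Tyro3_OE replicate 2, parental replicate 2, Tyro3_KO replicate 1 or Tyro3_KO replicate 2, with sums between -0.17 and -0.14. The remaining sums were 2.66 for Dcn, 0.56 for Loxl4, 0.54 for Sparc, 0.24 for Fn1 and -0.39 for Loxl3, whose call was lost with DESeq2 and without parental replicate 1 (-0.32).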

How the results depend on the processing

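Tests of genes and counts of calls were recomputed under up to 16 alternatives, up to 15 for the sums and as few as 13 for genes with few reads. Ratios of reads were not recomputed. Requiring a size of at least 1 on the log2 scale left 16 higher and 2 lower genes in Tyro3_OE over parental cells, 8 lower in Tyro3_KO over resistant, 9 higher in resistant over parental, 4 higher and 1 lower in Tyro3_KO over parental, 4 higher and 11 lower in resistant over Tyro3_OE cells, and 10 sums above 0 and 0 below (edgeR, where the called sums below 0 were 3 of any size). With length and GC trends removed 11 fell in Tyro3_OE over parental cells, whose median was 0.58. The median of Tyro3_KO over resistant cells turned to 0.16, that of resistant over parental cells was 0.036 and that of Tyro3_KO over parental cells 0.13. Under that setting Hspg2 turned to -0.35 and Col4a2 to -0.27 in Tyro3_OE over parental cells, Col18a1 to 0.16, Hspg2 to 0.055 and Col4a2 to 0.18 in Tyro3_KO over resistant cells, and Col18a1 to -0.21 in resistant over parental cells, where Col4a2 turned to 0.14 with upper-quartile scaling. Upper-quartile scaling gave medians of 0.96 in Tyro3_OE over parental and -0.25 in Tyro3_KO over resistant cells, while the medians of all genes moved to 0.17 and -0.17. Medians with at least 50 reads (33 genes tested) were 0.74, -0.16 and 0.15 in Tyro3_OE over parental, Tyro3_KO over resistant and Tyro3_KO over parental cells. Using the libraries of the comparison only gave 0.77 in the first (40 genes tested), and no filter gave -0.050 in the second. Leaving out single libraries gave medians of 0.68 to 0.75 in Tyro3_OE over parental, -0.080 to -0.056 in Tyro3_KO over resistant, 0.064 to 0.49 in resistant over parental and 0.14 to 0.22 in Tyro3_KO over parental cells, and 0.34 to 0.54 for the sums, with 44 or 45 genes tested. The genes that fell in Tyro3_KO over parental cells numbered 3 to 6. The cause of these shifts was not tested. Differences between replicates 1 and 2 correlated little between groups, at -0.000544 to 0.0415. That does not show whether libraries of the same number were prepared together. With the replicate block the counts were those without it, 27 higher and 7 lower, 15 and 20, and 20 and 12 in the first 3 comparisons, and 13 and 6, 13 and 17, and 21 and 3 in the others, with a median of 0.82 in the first. The calls in the authors' deposited table matched those of edgeR in 39 of 43 genes in Tyro3_OE over parental, 36 in Tyro3_KO over resistant and 39 in resistant over parental cells, with 0 of opposite sign, and the others of the 43 were called by edgeR only. Among the genes that edgeR did not test, the authors called Col19a1 higher in Tyro3_KO over resistant cells. They also called Fbn1 lower in resistant over parental cells. Genes with few reads, such as Lama3, Col5a3, Col9a3 and Col4a6, had calls that did not hold without single libraries.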

Other observations

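Of the 22 genes with too few reads for the test, Col10a1, the collagen of hypertrophic cartilage, had 5 and 7 reads in resistant libraries, against 0 and 0 in Tyro3_KO, 0 and 2 in Tyro3_OE and 0 and 3 in parental libraries. Col8a2, the partner chain of Col8a1, had at most 5 reads in a library, while Col8a1 stood between 65.6 and 182 CPM. Rgs5, a pericyte marker outside the matrix set, stood at 3.34 and 4.57 CPM in Tyro3_OE and 0 and 0 CPM in parental libraries, and at 1.63 and 1.57 CPM in Tyro3_KO and 0 and 0 CPM in resistant libraries.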
